A study of Sorghum bicolor and Setaria italica and Zea mays with 20 samples.

Results

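Accessible chromatin of the bundle sheath of *S. italica* (foxtail millet) was compared with that of the whole leaf of the same species, interval by interval. The comparison holds every DNaseI-hypersensitive site (DHS) that the authors listed on the 9 numbered chromosomes in either tissue, which is 78992 of the 79435 DHSs listed for *S. italica* on all sequences and of the 281868 listed for all species. Of these, 38989 DHSs belonged to bundle sheath and 40003 to whole leaf. A DHS was called matched when it shared at least 1 bp with a DHS of the other tissue, and 27175 pairs in which each DHS touched nothing else in the other list (1 to 1 pairs) were measured for width, position, rank, and digital genomic footprints (DGFs). The series has 20 samples, of which 5 are the *S. italica* chromatin samples used here, 2 of bundle sheath and 3 of whole leaf. Values of *S. bicolor* and *Z. mays* set beside them come from the lists of those species. These lists combine 2 bundle-sheath and 3 whole-leaf samples of *S. bicolor*, and 2 and 2 of *Z. mays*.

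Both groups are *S. italica* seedlings with no genotype or agent in the labels, raised under 1 set of growth conditions. Their leaves were taken at an age of 18 d, when the lights had been on for 4 to 6 h. The leaves of *S. bicolor* and *Z. mays* were taken at that age and time too. Whole-leaf nuclei come from intact leaves, and bundle-sheath strands were freed mechanically, by shearing leaves in a blender and filtering. Each biological replicate pooled leaves of many plants. A whole leaf holds bundle-sheath cells too, so the comparison is of an enriched cell type with a mixture that contains it. The lists hold no expression values, and the tissue labels were not checked against marker genes. The authors combined the replicates before deposit, giving 1 DHS list and 1 DGF list per tissue. There is therefore no replicate spread and no test between tissues, and the lists carry no read depth. Tissue, way of isolation, number of replicates, and depth cannot be told apart in any difference below. Intervals given in brackets are 95% Wilson intervals and cover counting error over listed intervals only.

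In C4 grasses such as *S. italica*, CO2 is first fixed in mesophyll cells and released again in the bundle sheath, the ring of cells around the veins where Rubisco and the Calvin-Benson-Bassham cycle operate. Both cell types carry the same genome and express different photosynthesis genes, and part of that difference is set by transcription factors that bind regulatory DNA. Such DNA is kept free of nucleosomes and is cut readily by DNaseI, which makes a DHS, while a bound protein shields a few bases inside the DHS and leaves a DGF. DHSs commonly lie at gene starts and in nearby regulatory DNA, and in grass chromosomes genes are dense toward the ends and sparse around the centromere.

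Most DHSs were found in both tissues. Of the bundle-sheath DHSs, 77.6% (77.2 to 78.0) matched a whole-leaf DHS, and of the whole-leaf DHSs, 79.4% (79.0 to 79.8) matched a bundle-sheath DHS. Matching rose steeply with fold enrichment, the authors' measure of how far cutting in a peak exceeds the background. In the lowest of 10 equal parts of the bundle-sheath list 50.3% of DHSs were matched, and in the highest part 99.8%. The whole-leaf list ran from 53.1% in its lowest part to 4004 of 4006 DHSs in its highest. Strongly enriched DHSs of one tissue were thus nearly always also listed in the other, and the unmatched DHSs were weaker and shorter by median. Median width rose along with fold enrichment, from 865.5 bp in the lowest bundle-sheath part to 1918 bp in the highest. In whole leaf it rose from 648 to 1426.5 bp. A longer DHS has more room for a 1 bp overlap, and width and enrichment were not separated here. Unmatched bundle-sheath DHSs had a median fold enrichment of 2.82 and a median width of 792 bp, against 3.28 and 1380 bp in matched ones. Unmatched whole-leaf DHSs had medians of 3.70 and 741.5 bp, against 4.76 and 1075 bp in matched ones. The lists also end at different levels, with a lowest fold enrichment of 2.57 in bundle sheath and 3.20 in whole leaf, and what lay under these limits is not listed. Few DHSs lay at the edge of the 1 bp requirement. The shortest overlap in a 1 to 1 pair was 26 bp, and 1 pair shared 50 bp or less. Less than 50 bp from a DHS of the other tissue lay 0 unmatched bundle-sheath DHSs and 1 unmatched whole-leaf DHS. Within 500 bp lay 15.0% of unmatched bundle-sheath DHSs and 12.5% of unmatched whole-leaf DHSs. A stricter rule did matter, since with an overlap of at least 50% of both intervals the matched bundle-sheath share was 64.2%. Unmatched DHSs were less often footprinted, with at least 1 DGF in 89.1% against 96.6% of matched ones in bundle sheath and in 90.5% against 93.6% in whole leaf. Per kb the tissues went opposite ways, with 2.54 DGFs in unmatched against 2.65 in matched bundle-sheath DHSs and 2.73 against 2.46 in whole leaf.

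**Figure D1:**
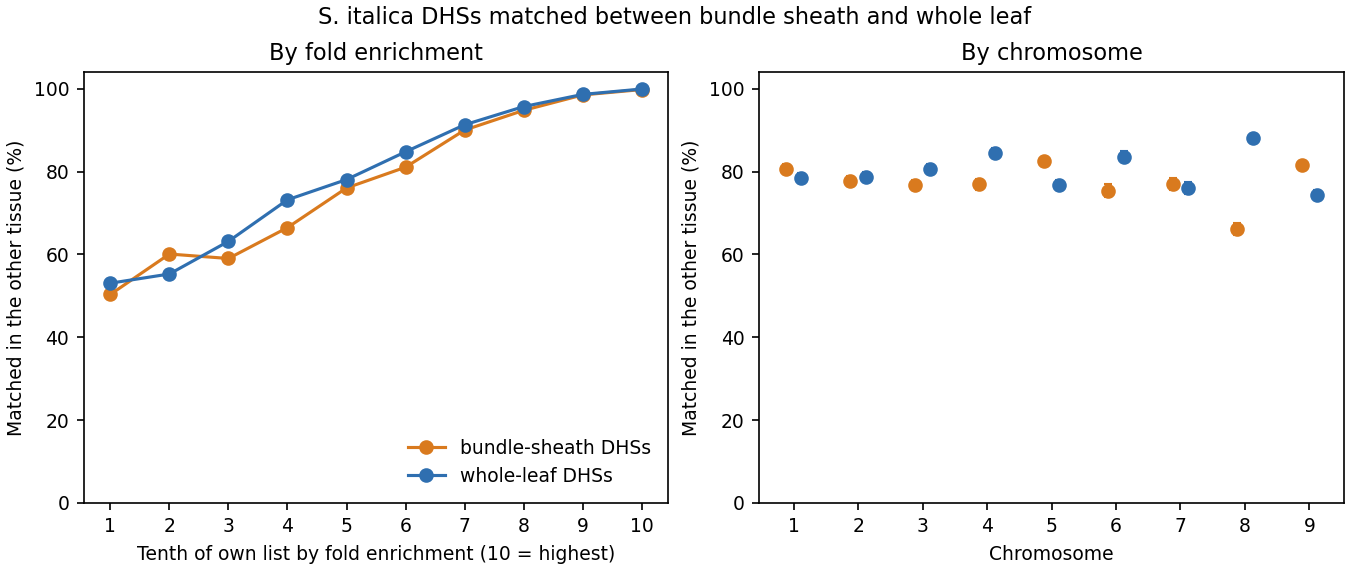
Share of *S. italica* DHSs that overlap a DHS of the other tissue, in percent, by 10 equal parts of the DHS's own list ordered by fold enrichment (left) and by chromosome (right, bars are 95% Wilson intervals, mostly smaller than the points). Both tissues climb from near 50% to near 100% on the left, and chromosome 8 shows the widest gap between the tissues on the right.

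The matched share was not even among chromosomes. Chromosome 8 held 3852 bundle-sheath DHSs and 3024 whole-leaf DHSs, 1.27 bundle-sheath DHSs for each whole-leaf DHS, whereas chromosome 9 held 5605 and 6419, a ratio of 0.873. On the 9 chromosomes the matched share of bundle-sheath DHSs ran from 66.2% (64.7 to 67.7) on chromosome 8 to 82.5% on chromosome 5, with 81.6% on chromosome 9. The matched share of whole-leaf DHSs ran the other way, from 74.4% on chromosome 9 to 88.0% (86.8 to 89.1) on chromosome 8. Chromosome 8 thus carried the largest share of bundle-sheath DHSs with no whole-leaf counterpart among the 9. With the whole-leaf list cut to its 38989 DHSs of highest fold enrichment, the length of the bundle-sheath list, the share on chromosome 8 was 66.0%. That cut left the bundle-sheath list whole and shortened the whole-leaf list little, from 40003, so it could change the share only slightly.

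The balance of the tissues also varied along the chromosomes. Each chromosome was divided into 10 stretches of equal length, as far as the lists reach. In stretch 5, near the middle, bundle sheath had 63.5 DHSs per Mb and whole leaf 49.4, and in stretch 10, at the end, bundle sheath had 103 and whole leaf 128. Both tissues thinned out toward the middle, and the whole-leaf list thinned out more. Accordingly, 68.1% of bundle-sheath DHSs in stretch 5 and 81.4% in stretch 10 were matched, and of whole-leaf DHSs 91.4% and 68.1%. Taken singly, bundle-sheath DHSs outnumbered whole-leaf DHSs in stretch 5 on 9 of 9 chromosomes, and whole-leaf DHSs were the more numerous in stretch 10 on 7 of 9, the exceptions being chromosome 3 at 1.04 bundle-sheath DHSs for each whole-leaf DHS and chromosome 8 at 1.26. Chromosome 8 had more bundle-sheath DHSs in all 10 stretches, 1.17 to 1.82 for each whole-leaf DHS. On chromosome 8 stretch 5 had 131 bundle-sheath DHSs and 72 whole-leaf DHSs, and 48.9% of the former were matched. Chromosome 7 was uneven from side to side. Its first 5 stretches had 30.9 to 87.1 whole-leaf and 44.0 to 103 bundle-sheath DHSs per Mb, and there bundle-sheath DHSs outnumbered whole-leaf DHSs 1.19 to 1.42 times. Its last 5 held 128 to 138 whole-leaf and 86.8 to 130 bundle-sheath DHSs per Mb, and there the ratio was 0.677 to 0.955. The excess of bundle-sheath DHSs on chromosome 7 thus lay on 1 side, where whole-leaf DHSs, the denominator of the ratio, were fewer.

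**Figure D2:**
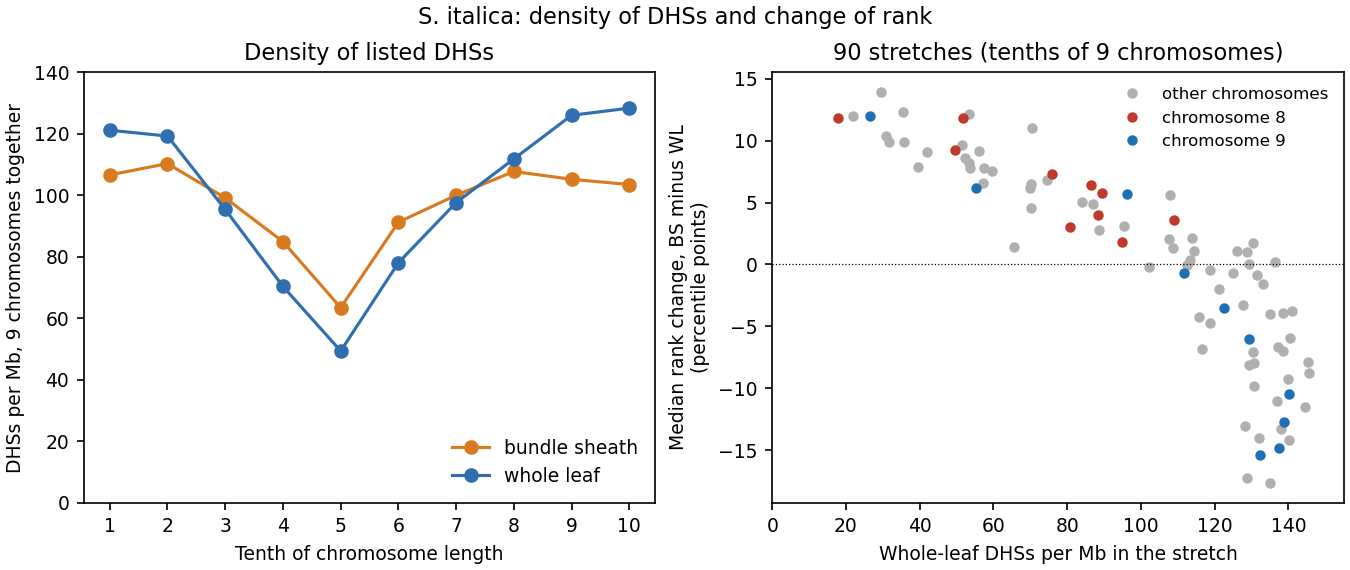
Left, listed DHSs per Mb in 10 stretches of equal length along the 9 chromosomes of *S. italica* together. Right, each of 90 stretches by its whole-leaf DHSs per Mb and the median change of rank of its 1 to 1 pairs (bundle sheath minus whole leaf, percentile points). Whole leaf falls to 49.4 per Mb in stretch 5 while bundle sheath falls to 63.5, and stretches with few DHSs lie above 0 on the right.

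Overlapping DHSs formed 29613 groups, of which 27175 (91.8%) were 1 to 1 pairs. Where 1 DHS of a tissue lay over several of the other, it was mostly the bundle-sheath DHS that spanned. In 1808 groups a single bundle-sheath DHS covered 2 or more whole-leaf DHSs, and in 512 groups a single whole-leaf DHS covered 2 or more bundle-sheath DHSs, a ratio of 3.53. Another 118 groups had several of each. The corresponding ratio was 1.21 in *S. bicolor* (1120 and 924 groups) and 0.949 in *Z. mays* (1004 and 1058). The spanning bundle-sheath DHSs of *S. italica* were long, with a median of 3495 bp, and they bridged whole-leaf gaps with a median of 330 bp. In the bridged gaps they held 1.16 DGFs per kb, against 2.49 per kb over their whole length, and 60.2% of gaps held none. The bridges were thus open in bundle sheath but thinly footprinted. The spanning DHS with the most whole-leaf DHSs under it, 4, that comes first along the genome lay on chromosome 1 from 9869183 to 9877773. It was 8591 bp long, its whole-leaf DHSs summed to 3851 bp, and it held 16 bundle-sheath DGFs. A second with 4 lay on the same chromosome from 26823325 to 26831088, ranked at percentile 99.8 of the bundle-sheath list, and held 23 DGFs. In the opposite direction the most was 3 bundle-sheath DHSs under 1 whole-leaf DHS, as on chromosome 3 from 21174690 to 21180696. That whole-leaf DHS was 6007 bp long, and the full widths of its bundle-sheath DHSs summed to 5692 bp.

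Bundle-sheath DHSs were wider than the whole-leaf DHSs they were paired with. The median width of paired DHSs was 1320 bp in bundle sheath and 1053 bp in whole leaf, and the median ratio within pairs was 1.12. The bundle-sheath DHS was the wider in 77.0% of pairs (76.5 to 77.5) and the whole-leaf DHS in 22.8%. At least 2 times wider in bundle sheath were 2831 pairs, 10.4% of all pairs, and at least 2 times wider in whole leaf were 285 pairs, 1.05%. The median ratio lay between 1.10 on chromosome 5 and 1.15 on chromosome 8, above 1 on 9 of 9 chromosomes, and chromosome 8 also had the largest share of pairs at least 2 times wider in bundle sheath, 14.1%. The ratio was thus shifted to the same side along the whole genome. In *S. bicolor* the median ratio was 0.996, with 48.2% of pairs wider in bundle sheath, and in *Z. mays* it was 1.00, with 52.3%. Whether *S. italica* differs from them beyond chance was not tested.

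**Figure D3:**
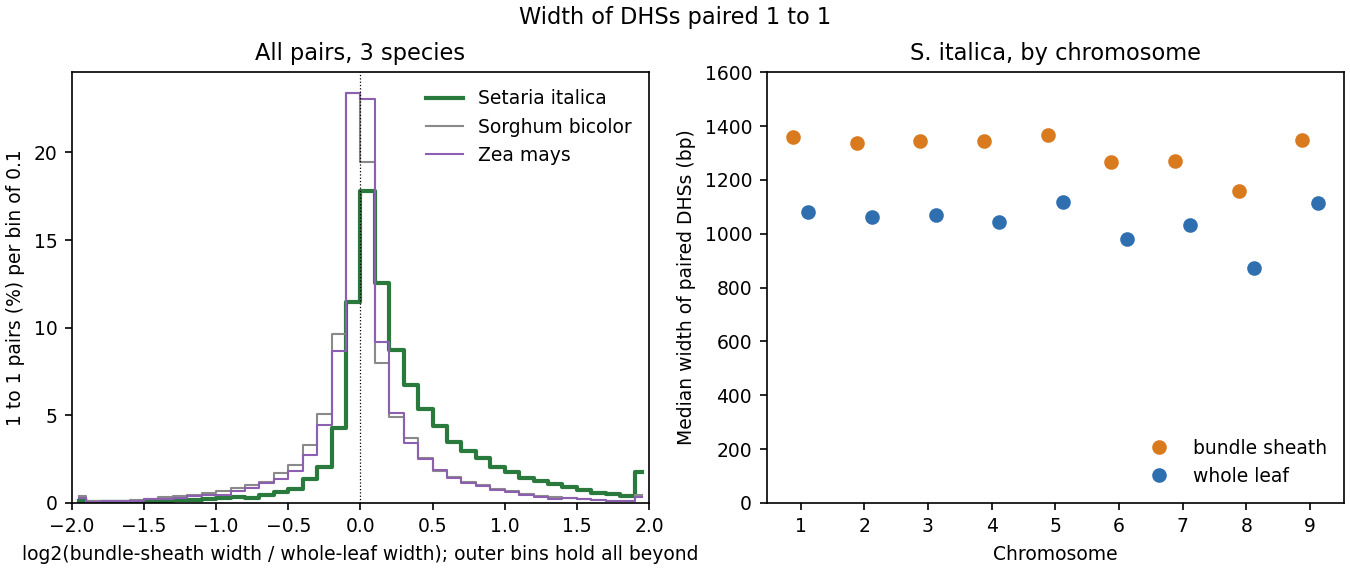
Left, share of 1 to 1 pairs by log2 of bundle-sheath over whole-leaf width, in bins of 0.1, with more extreme ratios gathered in the outer bins. Right, median width in bp of paired *S. italica* DHSs by chromosome. The *S. italica* curve leans to the right of 0 with 77.0% of pairs wider in bundle sheath, and bundle sheath is above whole leaf on all 9 chromosomes.

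The extra width of bundle-sheath DHSs lay at both ends. The left edge of the bundle-sheath DHS reached a median of 31 bp farther out than that of its whole-leaf partner and the right edge 43 bp. The interquartile range of the left edge shift, with outward positive, was −13 to 162 bp. In 49.8% of pairs (49.2 to 50.4) the whole-leaf DHS lay wholly inside the bundle-sheath DHS, and in 10.7% the reverse held. The remaining 39.5% were displaced, each reaching beyond the other on 1 side. As a consequence a median of 99.9% of a whole-leaf DHS was covered by its bundle-sheath partner, and 87.1% of a bundle-sheath DHS by its whole-leaf partner. The shares nested were 22.5% and 31.2% in *S. bicolor* and 26.5% and 26.1% in *Z. mays*. Among the *S. italica* pairs at least 2 times wider in bundle sheath, the edge lay farther out on both sides in 78.2%, yet in 79.3% more than 3/4 of the extra length was on 1 side. Large extensions were therefore mostly lopsided.

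The width difference depended on which DHSs were taken. In the 10% of pairs with the narrowest whole-leaf DHSs, the median ratio was 1.27, and in the 10% with the widest it was 1.05. Sorted by bundle-sheath width instead, the order turned round, from 1.01 among the narrowest to 1.35 among the widest. A ratio sorted by its own denominator or numerator moves in this way when both widths vary, so these values give the span and no direction. Sorted by the mean of the 2 ranks by fold enrichment, which contains no width, the median ratio fell from 1.19 in the weakest pairs (n = 548) to 1.09 in the strongest (n = 2529). Bundle-sheath DHSs were thus the wider ones in weak and in strong pairs. In the 9686 pairs whose ranks differed by at most 10 percentile points the ratio was 1.12.

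The most extreme pair lay on chromosome 5, where a bundle-sheath DHS of 5291 bp from 24372946 to 24378236 was paired with a whole-leaf DHS of 327 bp, 16.2 times narrower. Nearly all of the extra length was on the left, 4970 bp, and the summits, the positions of highest signal, were 19 bp apart. The bundle-sheath DHS held 15 DGFs and the whole-leaf DHS 1. On chromosome 1 a bundle-sheath DHS from 24416236 to 24419357 was 15.3 times wider than its partner of 204 bp, and on chromosome 7 another from 18805353 to 18809065 was 15.3 times wider than a partner of 243 bp. In all of these the whole-leaf DHS was itself short. In the other direction the most extreme pair was a bundle-sheath DHS of 204 bp and a whole-leaf DHS of 2546 bp on chromosome 5, from 46327516 to 46330061 in whole leaf, 12.5 times wider, with 0 and 8 DGFs. It was followed by pairs on chromosomes 4 and 8 at 7.53 and 6.59 times.

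Among pairs in the top 10% of both lists by fold enrichment, the pair with the most unequal widths was wider in bundle sheath on each of the 9 chromosomes, between 2.85 times on chromosome 3 and 7.52 times on chromosome 5. The pair on chromosome 5 had a bundle-sheath DHS of 7108 bp from 33232257 to 33239364 and a whole-leaf DHS of 945 bp from 33235450 to 33236394 in its midst. The bundle-sheath DHS extended 3193 bp to the left and 2970 bp to the right, held 20 DGFs where whole leaf had 1, and had its summit 24 bp from that of whole leaf. In these 9 pairs the summits were 3 to 343 bp apart, the farthest on chromosome 4. On chromosomes 1, 3, and 9 the bundle-sheath DHS ended 91, 16, and 51 bp inside the whole-leaf edge on 1 side, so the extra length there lay wholly on the other. On chromosome 8 the pair was a bundle-sheath DHS of 4520 bp from 22595505 to 22600024 over a whole-leaf DHS of 959 bp, ranked at percentiles 98.8 and 99.2 of their lists. The longest bundle-sheath DHS of all, 12025 bp on chromosome 3 from 47915723 to 47927747, covered 3 whole-leaf DHSs that summed to 11086 bp. The longest whole-leaf DHS, 8365 bp on chromosome 5 from 12715450 to 12723814, had a single bundle-sheath partner of 8559 bp.

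Summits stayed close. The median distance between the summits of a pair was 47 bp, 51.8% of pairs (51.2 to 52.4) had summits within 50 bp, 17.4% within 10 bp, and 1.26% on the same base. The signed shift had a median of 1 bp, so summits moved to neither side on balance. In 99.1% of pairs the bundle-sheath summit lay inside the whole-leaf DHS. Per chromosome the median ranged from 46 to 49 bp. In *S. bicolor* the median distance was 62 bp and in *Z. mays* 101 bp. In *S. italica* summits were nearer in strong than in weak pairs, at a median of 35 bp in the highest of 10 classes of mean rank against 63 bp in the lowest. They were also nearer in the narrowest whole-leaf DHSs (median width 357 bp) than in the widest (2846 bp), at 27 against 98 bp. Width limits how far a summit can shift, so narrow DHSs leave less room for it. Paired bundle-sheath DHSs were also wider in *S. bicolor* and *Z. mays*, at medians of 1417 and 1968 bp against 1320 bp in *S. italica*.

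In 2231 pairs, 8.21% of all, the summits were more than 500 bp apart. The largest shift was 5404 bp on chromosome 2, in a pair of nearly equal widths, 6010 bp in bundle sheath from 29564126 to 29570135 and 6123 bp in whole leaf. The bundle-sheath summit lay near its left end, at 29564226, and the whole-leaf summit near its right end, at 29569630. A similar pair on chromosome 9, from 37567884 to 37573726 in bundle sheath and 5843 and 5854 bp long, had edges 6 and 17 bp apart and summits 4618 bp apart. In both cases the same long open region was listed in both tissues with its strongest point at opposite ends. The second largest shift, 4781 bp on chromosome 2 from 18477283 to 18483252, came with a bundle-sheath DHS 2.92 times as wide as its partner.

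Strength was compared by rank, because fold enrichments of separately processed lists are not on 1 scale. Each DHS was given the percentile of its fold enrichment within its own list, 100 being the highest, and the change is bundle sheath minus whole leaf. Matched DHSs changed rank widely. The median change was −0.95 points, and 2.46 points when ranked by the authors' p-value, so its sign depended on the ranking, and the median size of the change, regardless of sign, was 16.2 points. Within 10 points of each other were 35.6% of pairs. A rise of at least 25 points in bundle sheath was found in 4225 pairs, 15.5% of all pairs, and a fall of at least 25 points in 4735 pairs, 17.4%. The order was firmest at the top, where 60.1% of the 3219 paired DHSs in the top 10% of the bundle-sheath list were also in the top 10% of the whole-leaf list. Paired bundle-sheath DHSs of the highest 10% had a median whole-leaf percentile of 93.0. Those of the lowest 10% had one of 32.8 with an interquartile range from 16.3 to 50.9. However, only 50.3% of bundle-sheath DHSs in the lowest 10% were matched, against 99.8% in the highest. The values at the bottom thus cover only DHSs with a partner above the whole-leaf limit. Since no replicate lists are given, how much of the spread of rank changes separate samples of 1 tissue would show is unknown. Pairs that rose by 25 points or more had a median width ratio of 1.24, and those that fell by as much had 1.05, so rise in rank and widening went together.

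Strong DHSs shared by both tissues included a pair on chromosome 7, 1635 bp in bundle sheath from 32959221 to 32960855 and 1351 bp in whole leaf, which ranked 3 in both lists and had its summit on the same base. The top whole-leaf DHS, on chromosome 7 from 34440383 to 34441528, ranked 124 in bundle sheath. By contrast, the pair that ranked 4 in bundle sheath, on chromosome 9 from 39238444 to 39240804, ranked 4870 in whole leaf, held 10 bundle-sheath and 4 whole-leaf DGFs, and had summits 553 bp apart. The pair that ranked 7 in bundle sheath, 309 bp on chromosome 3 from 30348873 to 30349181, ranked 30172 in whole leaf. The largest rise was 97.2 points, on chromosome 4 from 7411890 to 7412283, where a DHS of 394 bp ranked 25 in bundle sheath and 39108 in whole leaf with 0 and 1 DGFs. The highest ranks of bundle sheath thus included DHSs that whole leaf listed near its end. The largest fall, 92.0 points, was on chromosome 8 from 37732029 to 37732543, ranked 37459 in bundle sheath and 1397 in whole leaf, and there the widths were 515 and 592 bp, the summits 3 bp apart, and the DGFs 2 in each tissue. Shape and DGF number in that pair were nearly equal while the rank was not.

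Change of rank had a pattern along the chromosomes. In the middle 20% of chromosome length the median change was 4.56 points (n = 3883 pairs), and in the outer 10% at each end it was −6.82 (n = 6214). The middle was above the ends on 8 of 9 chromosomes, by 8.87 points on chromosome 8 to 23.0 points on chromosome 9, and on chromosome 7 the difference was −6.09 points. On chromosome 7 the median change was 4.85 to 11.0 points in the first 5 stretches of equal length, −6.68 to −14.0 points in the next 4, and 0.21 points in stretch 10, which was rich in whole-leaf DHSs at 136 per Mb. Over 90 such stretches of the 9 chromosomes, the median change of rank fell as the number of whole-leaf DHSs per Mb rose, with Pearson's r of −0.87 and Spearman's rho of −0.92, and with bundle-sheath DHSs per Mb in place of whole-leaf ones r was −0.47 and rho −0.47. The stretches share the same 2 pairs of lists and neighbouring stretches are not independent, so these coefficients are descriptive. The whole-leaf list also enters both measures, as the density and as the percentile that is subtracted. Part of the relation may therefore be built in, and how much was not tested. In the 18 stretches poorest in whole-leaf DHSs (17.7 to 55.4 per Mb) the median change was positive in 18, between 6.20 and 13.9 points, and in the 18 richest (135 to 146 per Mb) it was positive in 1. Pairs in stretches poor in whole-leaf DHSs therefore mostly stood higher in the bundle-sheath list than in the whole-leaf list. Widths moved along, with a median ratio of 1.17 in the middles and 1.09 at the ends, wider in the middle on 8 of 9 chromosomes.

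**Figure D4:**
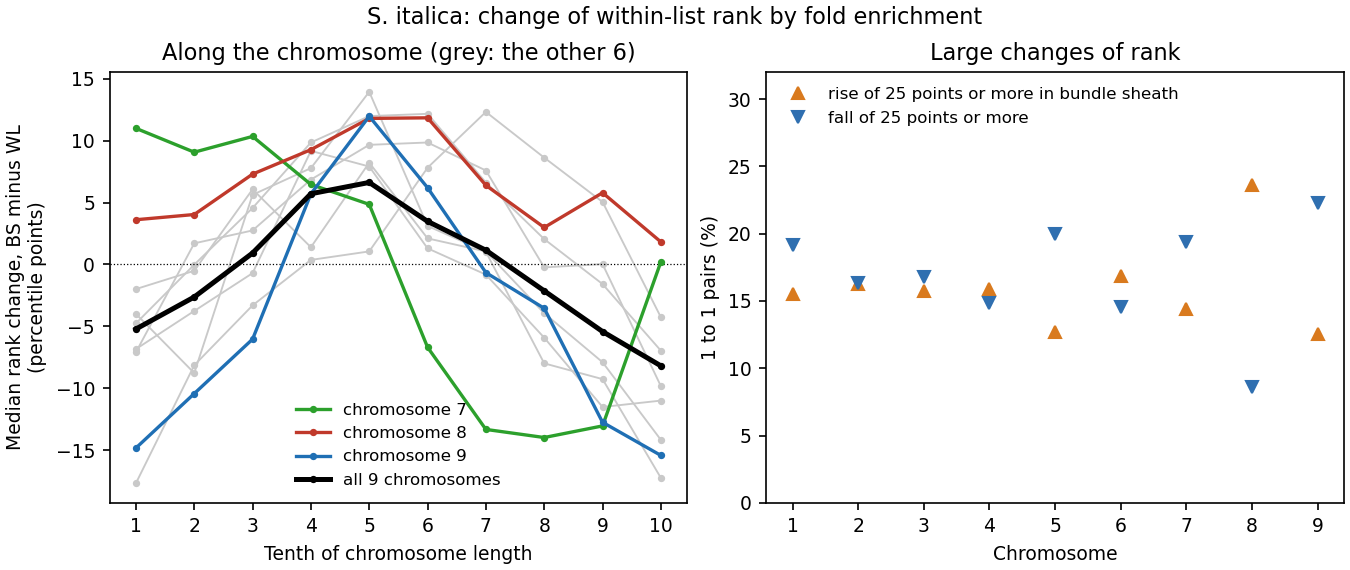
Left, median change of rank (bundle sheath minus whole leaf, percentile points) in 10 stretches of equal length along each *S. italica* chromosome. Right, percent of 1 to 1 pairs per chromosome that rose or fell by 25 points or more. Most lines peak in the middle, chromosome 8 lies above 0 throughout, chromosome 7 falls from 11.0 to −14.0 before its end, and chromosomes 8 and 9 show opposite balances of rises and falls.

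Chromosomes 8 and 9 stood at opposite ends of the range of medians. On chromosome 8 the median change was 5.82 points, with 23.6% of pairs rising and 8.63% falling by 25 points or more, and on chromosome 9 it was −4.83, with 12.6% rising and 22.3% falling. The other 7 chromosomes lay between −2.70 and 0.98. Chromosome 8 was above 0 in all 10 stretches, from 1.82 to 11.8 points, while chromosome 9 reached 12.0 in stretch 5 and −15.4 in stretch 10. Ranked by the authors' p-value instead of fold enrichment, the median was 7.81 on chromosome 8 and −0.06 on chromosome 9. The median of all pairs moved as well, from −0.95 to 2.46 points. Chromosome 9 thus lost its fall below 0 but stayed below the median of all pairs. By p-value the middles were 7.17 points above the ends. In *S. bicolor* the middles were 10.7 points above the ends and in *Z. mays* 0.40 points.

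Paired DHSs held more DGFs in bundle sheath. On average a pair had 4.17 DGFs in its bundle-sheath DHS and 3.09 in its whole-leaf DHS. More DGFs were found in bundle sheath in 56.3% of pairs (55.7 to 56.8), more in whole leaf in 23.7%, and the same number in 20.0%. An excess of at least 5 DGFs in bundle sheath was seen in 2168 pairs, 7.98%, and of at least 5 in whole leaf in 171 pairs, 0.629%. Per kb of DHS bundle sheath had 2.67 and whole leaf 2.47, a ratio of 1.08 that lay between 1.05 on chromosome 8 and 1.10 on chromosome 9. In the 16001 pairs of nearly equal width the ratio was 1.13. The bundle-sheath DGF list is the longer of the lists, with 158702 DGFs against 120468. With the bundle-sheath list cut to its 120468 DGFs with the strongest scores and the whole-leaf list left whole, the densities were 2.17 and 2.47 per kb. The ratio then turned to 0.879. With each list cut at its own median score, which leaves the bundle-sheath list the longer, the ratio was 1.18. The direction of the difference per kb thus depended on the length of the DGF lists. The study describes the removal of DGFs that deproteinized DNA marked as cutting bias, and whether the lists were deposited before or after that step was not established. In *S. bicolor* the densities were 2.16 and 2.17, and in *Z. mays* 1.75 and 0.863. The *Z. mays* lists were also unequal, with 164918 bundle-sheath and 79787 whole-leaf DGFs. The study reports that DGF calling was not saturated in *Z. mays* and that a library of that species had low complexity.

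DGFs of both tissues were densest near the summit. Within 50 to 100 bp of its own summit bundle sheath had 5.34 DGFs per kb and whole leaf 4.28, and both densities declined outward to 1.71 and 1.67 per kb between 1500 and 2000 bp. The stretch covered by both DHSs of a pair, 32.5 Mb in all, held 3.12 bundle-sheath DGFs per kb and 2.54 whole-leaf DGFs per kb, a ratio of 1.23 with 1.22 to 1.24 among chromosomes, and 1.04 with equally long DGF lists. The 10.0 Mb covered in bundle sheath alone, 23.6% of the paired bundle-sheath DHSs, held 1.20 per kb, and the 1.55 Mb covered in whole leaf alone held 1.02 per kb. The flanks by which bundle-sheath DHSs were wider were thus footprinted at less than the density of the shared stretch, and they held 12037 of the 113407 bundle-sheath DGFs in pairs. Of all pairs 90.9% had DGFs in both tissues, 5.58% only in bundle sheath, 2.83% only in whole leaf, and 0.71% in neither. Among pairs with DGFs in both, 71.7% had at least 1 DGF of each tissue at overlapping positions. That share counts pairs and not DGFs, and how many such overlaps placement alone would give was not computed. Counting single DGFs, the study reports that only a minority of those in bundle sheath were also found in whole leaf. DGFs in the shared stretch had a median length of 23 bp in both tissues, with 36.6% of bundle-sheath and 40.5% of whole-leaf DGFs at the longest length, while their median Wellington score was −15.5 in bundle sheath and −20.2 in whole leaf, more negative being stronger.

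**Figure D5:**
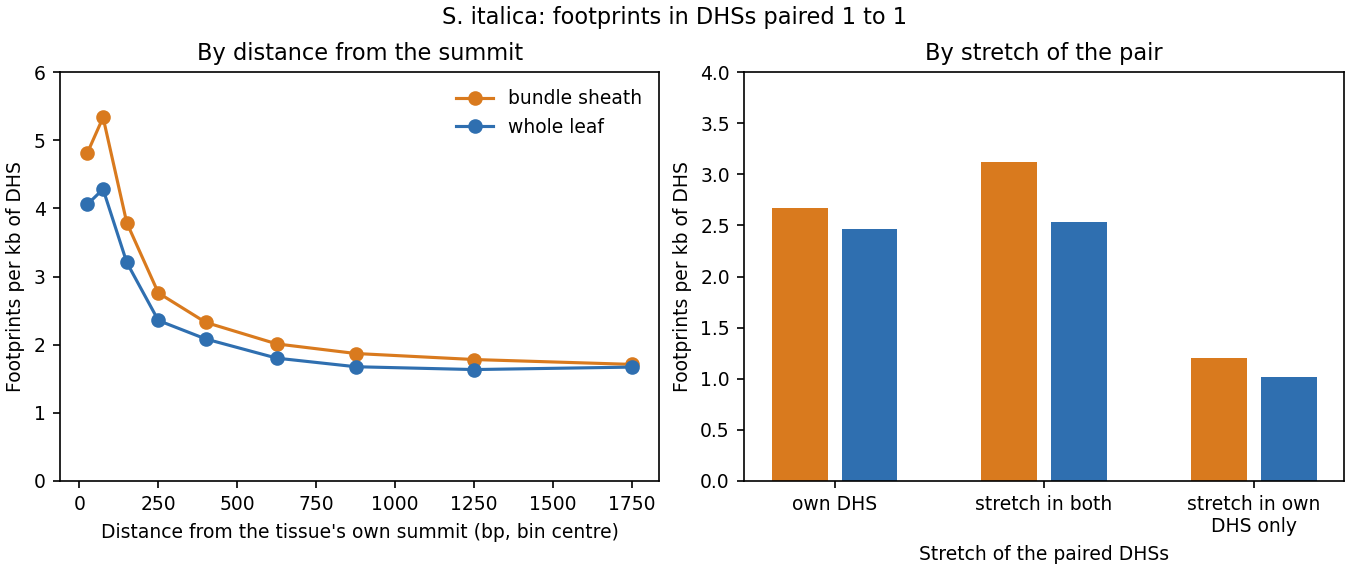
Left, DGFs per kb of paired DHS by distance in bp from the tissue's own summit. Right, DGFs per kb over each tissue's own DHS, over the stretch both cover, and over the stretch covered in that tissue alone. Bundle sheath is above whole leaf near the summit, 5.34 against 4.28 per kb at 50 to 100 bp, and both fall to near 1.7 per kb far from it.

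The largest excess of DGFs in bundle sheath was in a pair on chromosome 3, a bundle-sheath DHS of 10527 bp from 34833879 to 34844405 with 31 DGFs and a whole-leaf DHS of 904 bp with 1. Another bundle-sheath DHS on chromosome 5, 5364 bp from 44451080 to 44456443, had 23 DGFs against 3 in a whole-leaf DHS of 1563 bp, and the summits of that pair were 10 bp apart. Both had long flanks without a whole-leaf DHS. The largest excess in whole leaf was 10 DGFs, first on chromosome 1, where a whole-leaf DHS of 6356 bp from 24261266 to 24267621 had 20 DGFs and its bundle-sheath partner of 3643 bp had 10. In a second such pair, on chromosome 2, the whole-leaf DHS from 41973949 to 41976103 had 10 DGFs and a bundle-sheath DHS of 658 bp had 0. In these pairs the tissue with more DGFs was also the one with the wider DHS.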

How the data were processed

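DNaseI-seq lists of *S. italica* bundle sheath (2 samples) and whole leaf (3 samples) were analysed. For comparison, the lists of *S. bicolor* (2 and 3 samples) and *Z. mays* (2 and 2 samples) were measured by the same definitions. The authors mapped reads with Bowtie2 to Sitalica_164_v2, filtered out reads of MAPQ under 42 with SAMtools, and kept MACS2 peaks that passed an irreproducible discovery rate step as DHSs. DGFs are Wellington calls from pooled replicates. The study also describes a correction for cutting bias with deproteinized DNA. The deposited bundle-sheath lists together exceed the study's bundle-sheath total after that correction. Whether the whole-leaf lists precede it was not established. Versions are not given in the sources used here. The deposited DHS lists give a fold enrichment (a ratio over background), the −log10 of a p-value, and a peak score, and the deposited DGF lists give the Wellington score. Lists of enriched DGFs are the authors' own comparison between tissues and were not used. The lists count no reads, so depth per sample was not taken from them. 0 columns of other samples were left out.

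A shared stretch of 1 bp made 2 DHSs overlap. DGFs were counted by their midpoint, and percentiles used fold enrichment over each whole list. Chromosome length was taken as the largest listed position, and positions count from 1. Regions were named by rule: the 3 pairs highest in fold enrichment in each tissue, with the largest change of rank, width ratio, summit shift, and DGF difference in each direction, the 3 groups with the most DHSs under 1, the longest DHSs, and per chromosome the pair of most unequal widths in the top 10% of both lists, of which the text gives the leading ones. The stretches of chromosome 7 were singled out after their values were seen. No annotation of Sitalica_164_v2 was used, so no genes or sequences are given. The computation was tested on simulated data, and 6 of 6 overlap counts equalled those of BEDTools 2.31.1. Python 3.11.15, NumPy 2.4.6, pandas 2.3.3, SciPy 1.17.1, and matplotlib 3.10.9 were used. The members and measures were chosen with earlier results of these data known. Alternatives covered matching, list limits, sequences, the rank column, and DGF counting.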

Additional observations from a re-analysis of the deposited data

How the results depend on the processing

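Under every alternative run, matched DHSs stayed wider in bundle sheath with edges farther out. The signed median change of rank went from −0.95 to 2.46 points with ranks by p-value. The ratio of DGFs per kb also turned, and its value of 1.08 became 0.879 (2.17 against 2.47 per kb) with DGF lists of equal length. It was 1.04 in the shared stretch with equal lists, 1.23 in the shared stretch, 1.18 with the DGFs past the median score of each list, 1.13 in the 16001 pairs of nearly equal width, and 1.11 (1.105) with 50% reciprocal overlap. With 50% reciprocal overlap the matched bundle-sheath share was 64.2% (52.5% on chromosome 8), the width ratio 1.10, the edge shift 31 bp, the summit shift 49 bp, and the size of the rank change 15.7 points. With DHSs above the median fold enrichment of each list the shares were 70.5% and 58.9%, the edge shift 40 bp, the summit shift 43 bp, the rank change 8.63 points, chromosome 8 at 1.57, chromosome 9 at −1.54, and middles minus ends 4.59, where fewer ranks are open to each DHS. With equally long DHS lists the share was 76.6%. Mutual best overlaps gave 1.14, 41 bp, and 51 bp for width ratio, edges, and summits. Midpoints in place of summits gave 68.5 bp. Ranks over matched DHSs gave 16.6 points and 7.49 on chromosome 8, and ranks by p-value 13.7 points, with 7.81 on chromosome 8, −0.059 on chromosome 9, and 7.17 for middles minus ends. Leaving out each chromosome in turn gave width ratios of 1.12 to 1.13, edges of 37 to 38 bp, summits of 47 to 48 bp, rank changes of 16.0 to 16.3 points, and DGF ratios of 1.076 to 1.083. Moves are beyond counting intervals, which are narrow here, and their causes were not tested. The alternatives on chromosomes 8 and 9, on middles and ends, and on the shared stretch with equal lists were chosen after seeing the data. No paired analysis was possible because replicates were combined before deposit, and for the same reason no replicate could be left out.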
